A study of Rattus norvegicus with 2 samples.

Results

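Proteasome genes were compared between DRGs of the tumor side and DRGs of the control side. They were found by symbol, as every probe set with 1 gene symbol that begins with Psm, a letter from a to g and a digit. The interferon-induced Psmb8, Psmb9 and Psmb10 were left out, and where a gene had several probe sets, the brightest in mean log2 signal stood for it. This gave 43 genes of the 14217 genes on the array, on 57 probe sets. Of the 43, 30 encode subunits of the 26S proteasome, 3 encode activators, 1 encodes an inhibitor and 7 encode assembly factors. The remaining 2, Psmc3ip and Psme3ip1, share the symbol pattern only, since they encode proteins named for binding a subunit or an activator. Psmb6 and Psme3 were on the array solely on probe sets with several symbols and gave no member, and Psma8 and Psmb11, core subunits of testis and thymus, were not among the single symbols used here.

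The tumor side was the side of the right tibia, into whose marrow 100000 IP-B12 cells, an osteolytic rat pulmonary carcinoma line, had been placed. The control side was the left side. Female Sprague-Dawley rats aged 4 weeks were used, and the ganglia were taken 14 days after inoculation. DRGs hold the cell bodies of SNs together with glia, vessels and connective tissue. RNA of each side was measured on 1 Affymetrix GeneChip rat genome array, and the sources used here do not give the number of rats behind it. The left side gave no animals free of tumor as a control, and a mock injection there is not mentioned, so tumor and inoculation cannot be told apart.

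The 26S proteasome is the protease that degrades proteins tagged with ubiquitin. Its core particle is a barrel of outer alpha rings, which gate the entry, and inner beta rings, which hold the proteolytic sites. A regulatory particle caps the barrel, with a base whose ring of ATPases unfolds the substrate and a lid that removes the ubiquitin chain. In cells with blocked proteasomes the subunit genes are induced together by the transcription factor NFE2L1, and in SNs, whose axons are far from the cell body, protein turnover by this system takes part in axon maintenance.

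Values are MAS 5.0 signals on a linear scale, where a signal sums up the brightness of the probes against 1 transcript. A log2 ratio is the log2 of the tumor-side signal over the control-side signal. With 1 array per side there was no replicate error and no test, and each value describes these arrays. The tumor-side array was brighter by 5.98% in its trimmed mean. The median log2 ratio of the 9695 genes above the signal rule, which asks that a gene reach the median signal of at least 1 array, was 0.08, and it is called the median gene here. Listed SN genes had a median log2 ratio of -0.01 (11 of 12 listed genes above the rule), with 1 over the median gene and 10 under it. Glial genes had a median of 0.07 (7 of 9), with 3 over the median gene and 4 under it. None of these SN and glial genes was past a fold of 2, and SN and glial markers were present on both sides. Genes listed for other tissues and for blood cells differed more, and where their RNA came from was not tested. Skeletal muscle genes had a summed signal of 2186 on the tumor side and 3000.3 on the control side (10 of 14 listed above the rule), with a median log2 ratio of -1.70. Of the 10, 9 were at least 2-fold lower on the tumor side, and Myh1, which makes up most of the sum, had 1742 and 1583 (0.14). Bone and cartilage genes had 2114 and 1067 (6 of 11, 3 at least 2-fold higher), and granulocyte genes had 596 and 1269 (4 of 8, 2 at least 2-fold lower). Connective tissue and meningeal genes had a median of 0.22 (8 above the rule) and erythroid genes of -0.48 (2 above the rule). None of these markers had a signal of 0. The part of these tissues in the proteasome values below was not tested, and in whole ganglia a change in cell number and one in RNA per cell cannot be told apart.

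All 43 proteasome genes were above the signal rule on both arrays. None of them was at least 2-fold higher or lower on the tumor side, against 0.134% of all genes above the rule that were higher and 0.186% that were lower. At a fold of 1.2, 1 of the 43 was higher, which is 2.33% of them beside 12% of all genes, and 0 were lower, beside 3.99% of all genes. These counts turned to 0 higher and 2 lower, Psmd2 and Psmc3ip, after quantile normalization, centring or loess. The shares of all genes past this fold were not taken after these scalings, and the 12% and 3.99% do not apply to them. The median log2 ratio of the 43 was 0.09, close to the 0.08 of the median gene. Of the 43, 35 had a log2 ratio over 0, which is 81.4% beside 70.9% of all genes, and 23 lay over the median gene and 20 under it. After quantile normalization, centring on the median and loess, their median was 0.01, 0.01 and 0.02. The log2 ratios of the 43 had an SD of 0.10, and those of the 8399 genes in the same signal range had an SD of 0.17. That range ran from a mean signal of 103 for Psmc3ip to 5919 for Psmb4, without matching for brightness within it. The SD between probe sets of the same gene was 0.25 around Psmc3ip and 0.05 around Psmb4. The SDs of 0.10 and 0.17 are therefore not like for like.

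**Figure D1:**
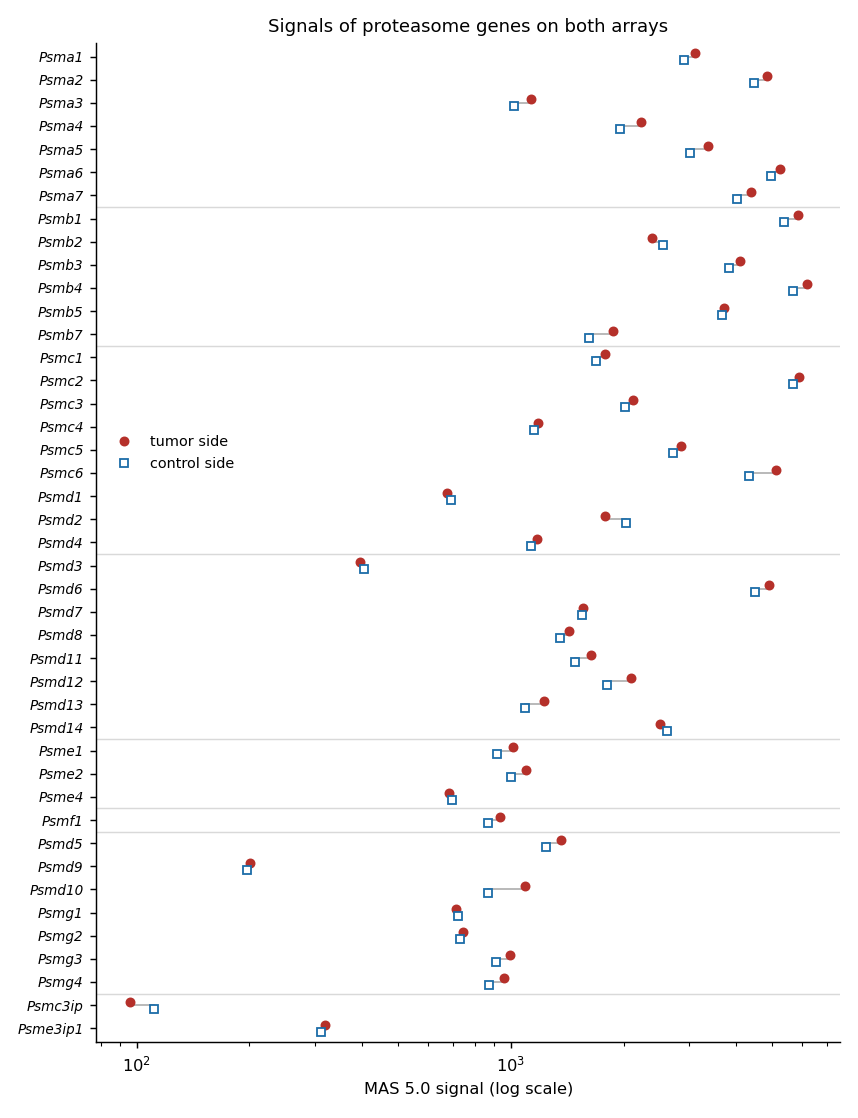
MAS 5.0 signal of each of the 43 genes on the tumor-side array (filled circles) and the control-side array (open squares), on a log scale, grouped by place in the proteasome. The pairs lie close together, with the widest gap at Psmd10 (1094 and 869.8).

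The alpha ring was even, and all 7 of its genes were brighter on the tumor side, beside 70.9% of all genes. That direction held for each of the 7 after loess but not for Psma6 after quantile normalization (0) or centring (-0.01). Their log2 ratios lay between 0.08 for Psma6 and 0.18 for Psma4, with an SD of 0.04 and a median of 0.12. Psma4, whose counterpart in yeast carries the tail that closes the gate of the barrel, had a signal of 2224 on the tumor side and 1962 on the control side, and Psma5 had 3361 and 3007 (log2 ratio 0.16). Psma3 had 1133 and 1019.7 (0.15). Psma7, Psma2 and Psma1 had log2 ratios of 0.12, 0.11 and 0.10, and Psma6 had 5226 and 4960.4. Of the 7, 6 were over the median gene by up to 0.10 on the log2 scale, and Psma6 was level with it.

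The beta ring varied more, with an SD of 0.10 over 6 genes and a median of 0.11. Psmb7, which encodes the subunit with trypsin-like activity, had a signal of 1872 on the tumor side and 1622 on the control side (log2 ratio 0.21), the highest of the core. Psmb5, which encodes the subunit with chymotrypsin-like activity and the main target of the proteasome inhibitor bortezomib, had 3711 and 3673 (0.01). These genes of catalytic subunits lay on either side of the median gene. Of the structural subunits, Psmb2 had 2389.9 and 2549, the sole core gene that was dimmer on the tumor side (log2 ratio -0.09). The other structural genes, Psmb1, Psmb4 and Psmb3, had log2 ratios of 0.13, 0.12 and 0.09, near those of the alpha ring.

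In the base, 5 of the 6 ATPase genes had nearly the same log2 ratio, between 0.03 for Psmc4 and 0.08 for Psmc1, at or under the median gene. Psmc1 had a signal of 1779 on the tumor side and 1686 on the control side, Psmc2 had 5889 and 5664, and Psmc3 had 2120.4 and 2023. Psmc5 had 2856 and 2708, and Psmc4 had 1181 and 1154. The exception was Psmc6, whose signal was 5105 on the tumor side and 4339 on the control side, a log2 ratio of 0.23. Its other 2 probe sets gave 0.17 and 0.20, with 4465 and 3955 on the first and 1343 and 1165 on the second. All 3 probe sets of Psmc6 were therefore above the log2 ratio of each other ATPase gene. The 3 non-ATPase genes of the base among the 43 were under the median gene. Psmd2, which encodes the large scaffold RPN1 that receives ubiquitin-like domains, had 1787 and 2026 (log2 ratio -0.18), the lowest of all genes of subunits, and was past a fold of 1.2 after quantile normalization (-0.27), centring (-0.26) and loess (-0.26). Psmd1, which encodes the other large scaffold, RPN2, had 673 and 691 (-0.04), and Psmd4, which encodes the ubiquitin receptor RPN10, had 1176 and 1128 (0.06).

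The 8 lid genes ran from a log2 ratio of -0.06 to one of 0.21, with an SD of 0.10 and a median of 0.10. Psmd12 had a signal of 2097 on the tumor side and 1809 on the control side (0.21), and Psmd13 had 1227 and 1091 (0.17). Psmd11, which encodes RPN6 and whose product clamps the lid to the core, had 1639 and 1488 (0.14), with 0.15 on its other probe set above the rule. Psmd6 and Psmd8, which encode the scaffold subunits RPN7 and RPN12, had log2 ratios of 0.12 and 0.08. At the low end, Psmd14 encodes RPN11, the metalloprotease that cuts off the ubiquitin chain. Its brightest probe set had 2507 and 2613 (-0.06), whereas its other 2 had 0.07 and 0.05, so that its sign rested on the choice of probe set. Psmd7, which encodes RPN8, the inactive partner of RPN11, had 1562 and 1552 (0.01), with 0.09 on its second probe set. Psmd3 had 395 and 405 (-0.04).

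**Figure D2:**
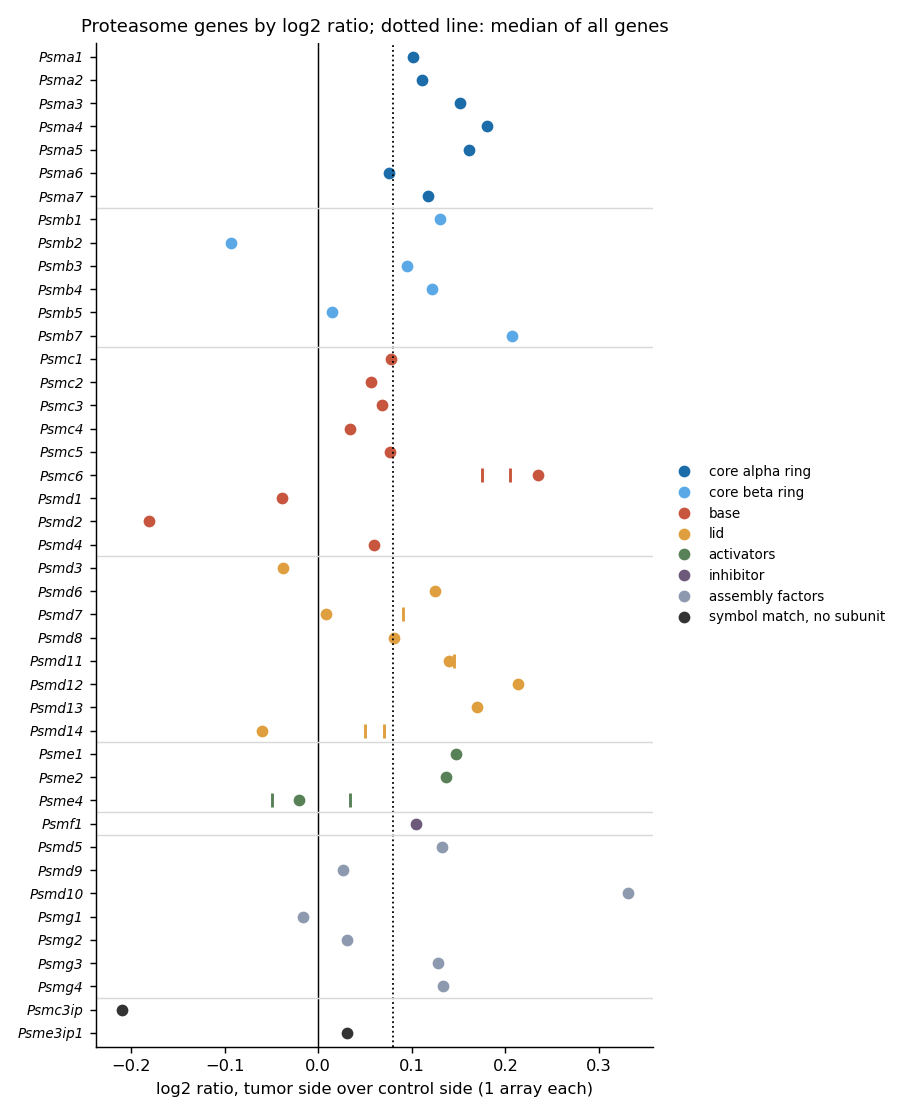
Log2 ratio (tumor side over control) of each of the 43 genes, grouped by place in the proteasome. Circles are the probe sets that represent the genes, bars are their other probe sets above the signal rule, and the dotted line is the median gene at 0.08. The alpha ring lies between 0.08 and 0.18, the ATPase genes other than Psmc6 lie between 0.03 and 0.08, and Psmd2 and Psmb2 lie lowest among the genes of subunits.

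Core, base and lid were set side by side by their medians. The core had a median log2 ratio of 0.12 (13 genes, 10 over the median gene and 3 under it), the base 0.06 (9 genes, 1 over and 8 under) and the lid 0.10 (8 genes, 5 over and 3 under). The lid minus the core was -0.02, the base minus the core -0.06 and the lid minus the base 0.04. Within the classes the log2 ratios of single genes had an SD of 0.08 in the core, 0.11 in the base and 0.10 in the lid. The differences between the medians were not tested. The base was the only class of the 3 whose median turned negative once the arrays were brought to a common scale, with -0.02 after quantile normalization, -0.02 after centring and -0.01 after loess. The core stayed over 0 in each of these, at 0.06, 0.03 and 0.06, and so did the lid, nearer to 0, at 0.03, 0.02 and 0.02. Of the base genes under the median gene, Psmc1, Psmc5 and Psmc3 were -0.002, -0.003 and -0.013 from it. Adrm1 of the base and Sem1 of the lid lie outside the symbol pattern and were not in these classes.

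For a technical yardstick, different probe sets of the same gene were compared. Over the 5 proteasome genes with several probe sets above the rule (13 probe sets), the log2 ratios of the same gene had an SD of 0.05. Over all genes with a mean signal of 1000 or more it was 0.07 (182 genes). Around each gene the same SD was taken over genes within a 2-fold range of its mean signal. Of the 43, 2 were more than 2 of these SDs over the median gene, beside 3.79% of the 8399 genes in their signal range. These were Psmc6 (0.15 over the median gene, SD 0.06) and Psmd10 (0.25, SD 0.10). More than 2 SDs under it were 3 of the 43, Psmb2, Psmd2 and Psmd14, beside 4.08% of genes. They lay 0.17, 0.26 and 0.14 under it, each with an SD of 0.07. For Psmd14 this rests on its brightest probe set, since its other 2 had log2 ratios of 0.07 and 0.05. A count of 2 and a count of 3 in 43 are near these shares, and the SD covers differences between probe sets, not between animals.

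**Figure D3:**
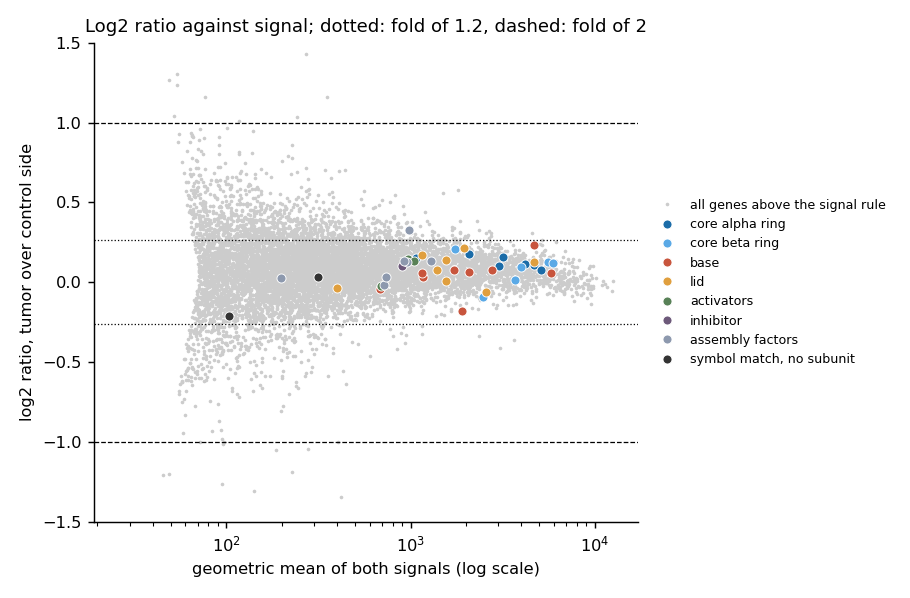
Log2 ratio (tumor side over control) against the geometric mean of both signals (log scale), for all genes above the signal rule (grey, 12 lie outside the axis at log2 ratios beyond 1.5 in either direction) and the 43 proteasome genes (coloured by class). Dotted lines mark a fold of 1.2 and dashed lines a fold of 2, and of the 43 genes Psmd10 alone crosses a dotted line.

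Of the 3 genes of activators, Psme1 and Psme2 had log2 ratios like those of the core, whereas Psme4 was under the median gene. Psme1 and Psme2, which encode the subunits of the PA28 cap and are inducible by interferon gamma, had signals of 1014 and 1101 on the tumor side and of 916 and 1001 on the control side. Their log2 ratios were 0.15 and 0.14. Psme4, which encodes the large cap protein PA200, had 684 and 694 (-0.02), and its other probe sets had -0.05 and 0.03. Psmf1, which encodes the inhibitor PI31, had 935 and 870.1 (0.10).

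Among the assembly factors, Psmd10 stood apart. It encodes gankyrin, which holds an ATPase while the base is built, and its only probe set had a signal of 1094 on the tumor side and 869.8 on the control side. The log2 ratio of 0.33 was the highest of the 43 and the only one past a fold of 1.2, and after quantile normalization, centring or loess it was no longer past that fold. The other chaperones of the base did not share it. Psmd5, which encodes the chaperone S5B, had 1358 and 1239 (0.13), and Psmd9, which encodes p27, had 201 and 198 (0.03). The chaperones that build the core act in pairs. Psmg3 and Psmg4, whose products act together on the alpha ring, had 994 and 961 on the tumor side and 910.3 and 876 on the control side, both with a log2 ratio of 0.13. Psmg1 and Psmg2, whose products also form a dimer, had 715 and 746 on the tumor side and 723 and 729.9 on the control side (-0.02 and 0.03). Psmg1, Psmg2, Psmg3 and Psmg4 each lay within 1 SD between probe sets of the median gene. Of the genes that share the symbol pattern only, Psmc3ip, known for its role in meiotic recombination, had 96.0 and 111 (-0.21), the lowest of the 43 and the dimmest, and was past a fold of 1.2 after each of the 3 scalings (-0.29 in each). Psme3ip1 had 318 and 311 (0.03).

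The immunoproteasome genes, outside the 43, were brighter on the tumor side, also after each of the 3 scalings. Psmb8 had 154 on the tumor side and 127 on the control side (log2 ratio 0.28), Psmb10 had 506 and 431 (0.23) and Psmb9 had 247 and 222 (0.15). These genes replace the catalytic subunits of the constitutive core in cells exposed to interferon and in cells of the immune system. At their lower signals the SD between probe sets of the same gene was larger, 0.21 around Psmb8, 0.13 around Psmb10 and 0.17 around Psmb9. Of these, Psmb10 alone was farther than 1 such SD from the median gene. Listed interferon response genes had a median of 0.11 (8 of 10 above the rule). Their summed signal was 10630 on the tumor side and 10949 on the control side, most of it from B2m with 9305 and 9815 (-0.08). Macrophage genes had a median of 0.16 (7 of 8, summed signal 1319.8 and 1186), with Cd68 (-0.15) and Cd14 (-0.13) going the other way. At a fold of 1.2, 3 of the 8 interferon response genes and 1 of the 7 macrophage genes were higher, beside 12% of all genes. At that fold 0 were lower. None of these markers had a signal of 0, and their part in the immunoproteasome values was not tested.

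Around the proteasome, 38 of 51 listed genes of the ubiquitin pathway were above the rule, with a median log2 ratio of 0.05. None was past a fold of 2. Past a fold of 1.2, 3 had a higher signal on the tumor side, beside 12% of all genes. A lower signal past that fold was found for 2, beside 3.99% of all genes. Of 10 partners of the proteasome outside the symbol pattern, Adrm1 had the highest log2 ratio and Akirin2 the lowest. Adrm1, which encodes the ubiquitin receptor RPN13 of the base, had 144 on the tumor side and 92.5 on the control side (0.64), on its only probe set and at a signal where the SD between probe sets was 0.23. Akirin2, which encodes a protein that brings proteasomes into the nucleus, had 76.5 and 93.5 (-0.29), with an SD of 0.26 around its signal. Uchl5, a deubiquitinase that binds RPN13, had 0.12, whereas Zfand5, a proteasome-binding protein, had -0.03. Sem1, which encodes the smallest lid subunit, and Pomp, which encodes a chaperone of core maturation, both had 0.08 and were level with the median gene. Usp14, a deubiquitinase docked on the base, had -0.02.

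Both genes of ubiquitin-activating enzymes were over the median gene, Uba6 with 1722 and 1504 (0.20) and Uba1 with 731 and 645 (0.18). Of 8 genes of ubiquitin receptors and unfolding factors, 7 were under the median gene, with a median of -0.01. They ranged from Ubqln2, a shuttle of ubiquitinated proteins, with 3067 and 3304 (-0.11), and Vcp, which encodes the unfoldase p97, with 3661 and 3823 (-0.06), to Ufd1 and Ubqln4 with 0.08 and 0.09. Of 10 other listed genes of ubiquitin enzymes, Ube2n, which encodes the ubiquitin-conjugating enzyme UBC13, had 833 and 684 (0.28). Uchl3, a ubiquitin hydrolase, had 978 and 810 (0.27). Huwe1 and Nedd4, ubiquitin ligases, had -0.15 and -0.01.

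Genes of the factors that control proteasome gene expression lay mostly under the median gene. Of 8 above the rule, 2 were over the median gene and 6 under it, with a median log2 ratio of 0.03. Nfe2l1, which encodes the main inducer of subunit genes, had 1088 on the tumor side and 1074 on the control side (0.02), with -0.08 and 0.25 on its other probe sets. Nfe2l2, which encodes the related factor of the oxidative stress response, had 1187 and 1024 (0.21), and Ngly1, whose product processes NFE2L1, had 0.08. Keap1, the repressor of NFE2L2, had -0.08. Mafg, which encodes a small MAF partner of these factors, had 298 and 364 (-0.29), and its second probe set went the other way.

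**Figure D4:**
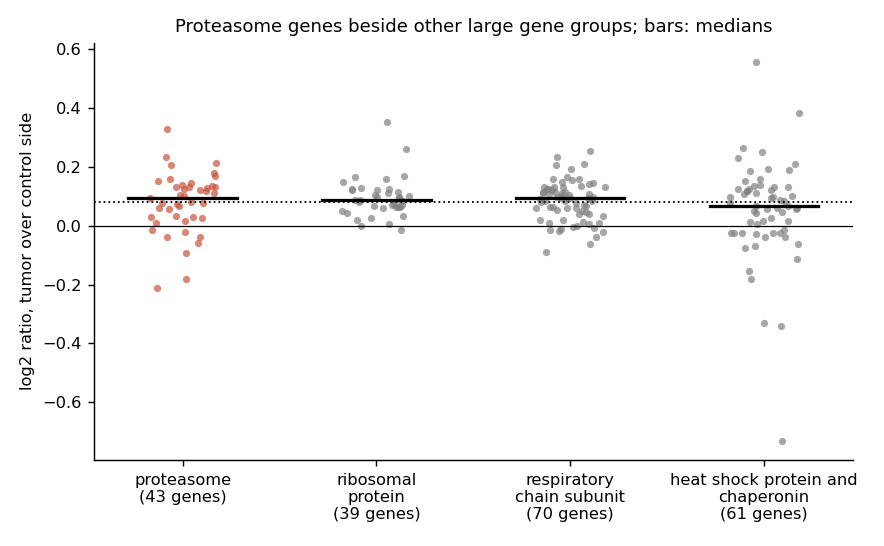
Log2 ratio (tumor side over control) of the proteasome genes and for genes of 3 other large cellular machines that passed the signal rule. Each point is a gene and brackets give their number. Horizontal bars are medians and the dotted line is the median gene at 0.08. The 4 medians lie between 0.07 and 0.09.

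Genes of other abundant complexes had similar medians. The median log2 ratio was 0.09 for the proteasome, 0.09 for 39 ribosomal protein genes, 0.09 for 70 genes of respiratory chain subunits and 0.07 for 61 heat shock protein and chaperonin genes. The SD of the log2 ratios was 0.10 for the proteasome, 0.07 for the ribosomal protein genes, 0.07 for the respiratory chain and 0.17 for heat shock proteins and chaperonins. No test of these differences was possible with 1 array per side, and the groups were not matched for brightness.

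The promoters were read for short elements, since subunit genes are known to be induced together. Promoter sequences of RefSeq (assembly GRCr8), from 250 bases before to 50 bases after the start of each gene, were matched to 39 of the 43 genes by gene identifier. Psma7, Psmd6, Psmd12 and Psmd14 were not matched. The core of the antioxidant response element, TGACNNNGC, which NFE2L1 and NFE2L2 bind with small MAF proteins, was searched on both strands. It was found in 7 of the 39 promoters (17.9%), beside 12.1% of all 33469 promoters in the table. Of the other elements, the ETS site CCGGAAG was in 15 of the 39 (38.5%, beside 8.75% of all) and the GC box GGGCGG in 28 (71.8%, beside 33.1%). The CCAAT box, CCAAT, was in 20 (51.3%, beside 37.5%) and the TATA box, TATAAA, in 4 (10.3%, beside 14.2%). The 33469 promoters include those of genes not above the signal rule, whereas all members were above it. The shares are therefore not like for like. Of genes above the rule with a promoter, 5224 had a GC box and 2854 had none. For the TATA box this was 513 and 7565, for the ETS site 1497 and 6581, and for the CCAAT box 3057 and 5021. Beside these genes the TATA box was not rarer in members. A match is a string of letters and not a site of binding.

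The 6 promoters with a match to the antioxidant response element core before the gene start are shown. They were chosen for display by the values, since 5 of their 6 genes were under the median gene. Each runs 5′ to 3′ on the strand of the gene, with the match in capitals, and positions are counted back from the first base of the gene.
Psma3, 37 bases at chr6:95219712-95219748, plus strand: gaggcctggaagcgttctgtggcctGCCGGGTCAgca
Psmb2, 59 bases at chr5:144254965-144255023, plus strand: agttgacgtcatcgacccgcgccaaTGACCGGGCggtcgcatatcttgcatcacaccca
Psmb5, 59 bases at chr15:32047406-32047464, minus strand: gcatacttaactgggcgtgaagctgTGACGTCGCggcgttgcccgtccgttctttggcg
Psmd1, 59 bases at chr9:94157781-94157839, plus strand: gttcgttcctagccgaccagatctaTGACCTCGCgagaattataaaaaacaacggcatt
Psmd9, 106 bases at chr12:39018308-39018413, minus strand: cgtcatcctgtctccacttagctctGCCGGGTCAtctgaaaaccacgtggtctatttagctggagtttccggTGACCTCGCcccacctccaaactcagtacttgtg
Psme4, 59 bases at chr14:108706563-108706621, plus strand: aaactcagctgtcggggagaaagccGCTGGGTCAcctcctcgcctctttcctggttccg

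The matches of Psma3 and Psme4 and the first match of Psmd9 are on the opposite strand and are read there in reverse. That of Psmb2 overlaps a CCAAT box and a GC box. Psmd3 has its match after the gene start and is not shown, and Psmd1 has a second match there. The log2 ratios of these 7 genes were 0.15 for Psma3, 0.03 for Psmd9, 0.01 for Psmb5, -0.02 for Psme4, -0.04 for Psmd3, -0.04 for Psmd1 and -0.09 for Psmb2. Their median was -0.02, and 6 of the 7 were under the median gene, beside 4847 of all 9695 genes above the rule. The element was singled out by these values, and the difference from genes without it was not tested. The 32 genes without a match had a median of 0.10 and ran from -0.21 to 0.33, with 13 of them under the median gene. Over all genes above the rule with a promoter in the table, the same division gave no such difference, with a median of 0.08 for 1169 genes with a match and 0.08 for 6909 genes without one. For the other elements, the medians of members with and without a match were 0.08 and 0.10 for the ETS site, 0.10 and 0.06 for the GC box, 0.10 and 0.08 for the CCAAT box and 0.07 and 0.08 for the TATA box.

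**Figure D5:**
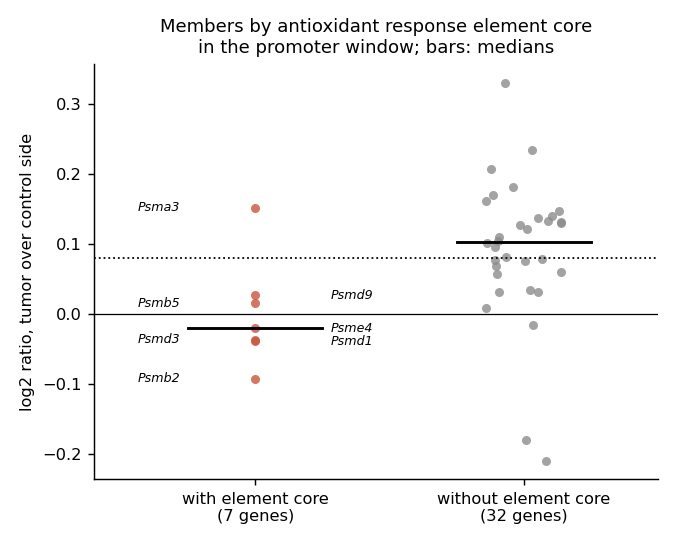
Log2 ratio (tumor side over control) of the 39 proteasome genes with a promoter sequence, with (left, 7 genes, named) and without (right, 32 genes) the antioxidant response element core between 250 bases before and 50 bases after the gene start. Horizontal bars are the medians, -0.02 and 0.10, and the dotted line is the median gene at 0.08. The difference was not tested.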

How the data were processed

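Total DRG RNA of each side (100 ng) was made into biotinylated cRNA and hybridized to 1 array per side. The authors computed signal intensity values with MAS 5.0 at default settings and deposited them on a linear scale. Detection calls were not used here, and the sources used here do not give the target of the scaling. The table holds 31099 probe sets, 57 of them controls. Of the rest, 20826 have 1 symbol, 436 have several and 9780 are unnamed here. All 43 members matched RefSeq (GRCr8) by gene identifier with the same symbol.

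Log2 ratios of tumor side over control side were taken without a pseudocount. Without replicates no test was made, and folds of 2 and 1.2 were used for counts. The named genes were all members, the immunoproteasome genes and, of each pathway list, the 2 highest and 2 lowest above the signal rule. Nfe2l1, Sem1, Pomp and Usp14 lie outside this rule and were chosen after their values were seen. Members and lists were chosen with earlier results of these data known. Simulated log2 ratios with known shifts were used only to check the code of the summaries, not the spread or the results of these data.

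Beside these values, the signals were quantile normalized, the log2 ratios were centred on their median or corrected by loess (span 0.3), and a pseudocount of 11.1, the signal at percentile 20, was added. The signal rule was dropped, raised to percentile 75 or asked of each array. Cross-hybridising probe sets were removed, and genes were represented by the average of their probe sets or by the dimmest above the rule. Versions were Python 3.11.15 with matplotlib 3.10.9, statsmodels 0.14.6, pandas 2.3.3 and numpy 2.4.6. The number of arrays limits the precision.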

Additional observations from a re-analysis of the deposited data

How the results depend on the processing

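The medians of all members, core, base, lid, activators and assembly factors were 0.0081, 0.061, -0.023, 0.026, 0.050 and 0.036 after quantile normalization, 0.011, 0.034, -0.024, 0.019, 0.053 and 0.044 after centring, and 0.022, 0.058, -0.013, 0.024, 0.048 and 0.039 after loess. After each of these 3, 0 members were higher and 2 lower at a fold of 1.2, with no share of all genes taken beside it. When all probe sets of a gene were averaged, dim ones included, the lid had 0.065 and the activators -0.012. For the activators, but not for the lid, this was a larger move than with any scaling. With this averaging, 1 member was lower at a fold of 1.2, again with no share of all genes beside it. Mafg, at -0.29, had 0.41 on its dimmest probe set and 0.061 as an average of its probe sets, whether all or those above the rule. Averaging also gave -0.59 for Psmd11, -0.01 for Psme1, 0.15 for Huwe1, 0.10 for Keap1 and -1.07 for Ubqln2, the other 5 of 758 values of named genes that moved by more than the SD between probe sets (0.15). The cause was not tested beyond this construction. Of 12 alternatives, 2 were chosen after seeing the data, leaving out Psmc3ip and Psme3ip1 and averaging the probe sets above the rule. Pairing could not be used. No paired analysis was possible because there is 1 array a side.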

Other observations

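Of the 57 probe sets of the 43 genes, 6 were below the signal rule. Psmd11 had a signal of 0.85 on the tumor side and 3.50 on the control side on such a probe set (log2 ratio -2.04), which as an equal part of a mean over its 3 probe sets gave -0.59, against 0.14 on its brightest. Psmb5 had 66.0 and 52.5 (0.33) on 1 dim probe set and 17.98 and 27.1 (-0.59) on another. Psme1 had 13.9 and 15.7 (-0.18), Psmd9 had 63.6 and 56.2 (0.18) and Psmc4 had 1.87 and 1.93 (-0.05). These dim probe sets went in both directions.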
